A study of Mus musculus with 2 samples.

Results

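The genes described here encode the machinery that brings nuclear-encoded proteins into mitochondria. They were chosen by name: protein-coding genes whose symbol in the GENCODE M21 annotation begins with Timm or Tomm and a number, or with Timmdc, and 11 further genes (Samm50, Mtx1, Mtx2, Chchd4, Gfer, Pam16, Dnajc19, Grpel1, Grpel2, Pmpca and Pmpcb). All 37 were found among 43346 gene rows, of which 21461 were protein-coding genes of the nucleus.

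RNA came from G1E-ER4, an immortalized mouse erythroid line, labelled C57BL/6J, male and postnatal. The line lacks its own Gata1 and carries an introduced Gata1 that works only with oestrogen bound, and all cells of this group had received 10 nM 17beta-estradiol for 24 h. The group held 2 libraries, labelled biological replicates 1 and 2, of ribosomal RNA-depleted total RNA made with the ScriptSeq kit from 100 ng. Untreated cells were not analysed here, so levels, ratios within a library and differences between the replicates are described, and no effect of estradiol was tested. The line is a single genotype, and the spread given is that between these 2 samples alone.

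Most mitochondrial proteins are made in the cytosol and carry signals that receptors of the outer membrane recognise. They cross through the channel of the TOM complex and are then sorted: to the matrix or inner membrane through TIM23 and the motor on its inner face, to the inner membrane through TIM22, to the outer membrane through SAM, or into the intermembrane space by the MIA disulfide relay. Small TIM chaperones carry hydrophobic cargo across the intermembrane space, and a peptidase of the matrix removes the targeting sequence. Developing red cells depend on this route for the mitochondrial enzymes of haem synthesis.

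The stretch that defines the small TIM chaperones is shown first, because this family held both the highest and one of the lowest levels in the set and its coding sequences are alike enough to be compared base by base. Each runs from the first to the last codon of a twin motif, 5′ to 3′ on the coding strand, read from the GENCODE M21 transcripts. Capitals mark the cysteine codons, TGT or TGC. Chchd4, which oxidises these proteins in the intermembrane space, carries a twin motif of its own and is given last.
Timm8b: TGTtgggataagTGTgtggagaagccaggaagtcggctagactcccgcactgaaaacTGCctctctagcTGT
Timm8a1: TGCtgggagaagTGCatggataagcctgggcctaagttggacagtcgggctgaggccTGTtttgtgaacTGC
Timm8a2: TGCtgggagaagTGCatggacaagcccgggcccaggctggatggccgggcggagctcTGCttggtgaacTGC
Timm13: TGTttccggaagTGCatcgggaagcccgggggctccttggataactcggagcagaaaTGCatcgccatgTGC
Timm9: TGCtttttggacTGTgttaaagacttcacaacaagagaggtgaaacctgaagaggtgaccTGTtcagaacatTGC
Timm10: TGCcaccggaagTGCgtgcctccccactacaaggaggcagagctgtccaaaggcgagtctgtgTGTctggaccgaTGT
Timm10b: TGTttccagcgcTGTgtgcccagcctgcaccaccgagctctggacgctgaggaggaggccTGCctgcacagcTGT
Chchd4: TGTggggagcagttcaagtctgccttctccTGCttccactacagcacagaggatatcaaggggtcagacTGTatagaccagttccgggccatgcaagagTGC

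In all 7 small TIM genes 3 codons separate the cysteines of each pair. Between the pairs lie 14 codons in Timm8b, Timm8a1, Timm8a2 and Timm13, 15 in Timm9 and Timm10b, and 16 in Timm10. Each of the 7 has 4 cysteine codons in its whole coding sequence, so the stretches hold all of them. In Chchd4 the cysteines of a pair lie 9 codons apart, from codon 64 to codon 97. Over the aligned coding bases Timm8a1 and Timm8a2 were 77.3% identical, and Timm8b and Timm8a1 were 61.7% identical. The longest run without a difference was 20 bases between Timm8a1 and Timm8a2.

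Replicate 1 summed to 62080996 expected counts and replicate 2 to 41051158, and the 37 genes held 0.171% and 0.173% of them. By chi-square over 12223 genes the libraries differed by 75.8 per degree of freedom, more than counting error alone would give. That they are separate biological samples rests on the labels, which this value cannot check. The label was checked against markers: all 9 erythroid genes reached 1 TPM in both libraries, against 1 of 5 megakaryocyte genes (Itga2b) and 0 of 6 myeloid, 0 of 4 mast cell and 0 of 4 stromal or endothelial genes. Gata1 is among the 9, at 60.1 and 73.2 TPM. It was introduced into this line, so its level is no check of the label. Summed over the list, myeloid markers stood at 0.130 TPM in replicate 1 and 1.12 TPM in replicate 2. Erythroid markers summed to 2309 and 3193 TPM. Counts were found for 16115 genes in replicate 1 and for 19353 in replicate 2, the library with the smaller total. The lymphoid genes Cd3e and Cd79a and the stromal or endothelial genes Col1a1, Col1a2 and Cdh5 had 0 counts in both. The part of these other cell types in the differences between replicates below was not tested. In bulk RNA a lower level from fewer cells and one from less RNA per cell cannot be told apart.

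Levels below are deposited TPM, a length-scaled share of the library, of which nuclear protein-coding genes make up only a part. Multiplying by 7.09 in replicate 1 and 6.95 in replicate 2 would put them on a scale where nuclear protein-coding genes alone make up the full sum. Nearly the whole import machinery was expressed: 35 of 37 genes (94.6%) reached 1 TPM in both replicates, against 36.3% of nuclear protein-coding genes. At 10 TPM the count was 12 of 37 (32.4%), against 12.1% of nuclear protein-coding genes. The median over all 37 was 7.37 TPM. Among genes at 1 TPM or more, the median was 7.57 TPM for the 35 members and 6.43 TPM for 7781 protein-coding genes, so the typical expressed member stood near the typical expressed gene. Both genes under 1 TPM, Tomm20l and Timm8a2, have a closely related member that was expressed.

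**Figure D1:**
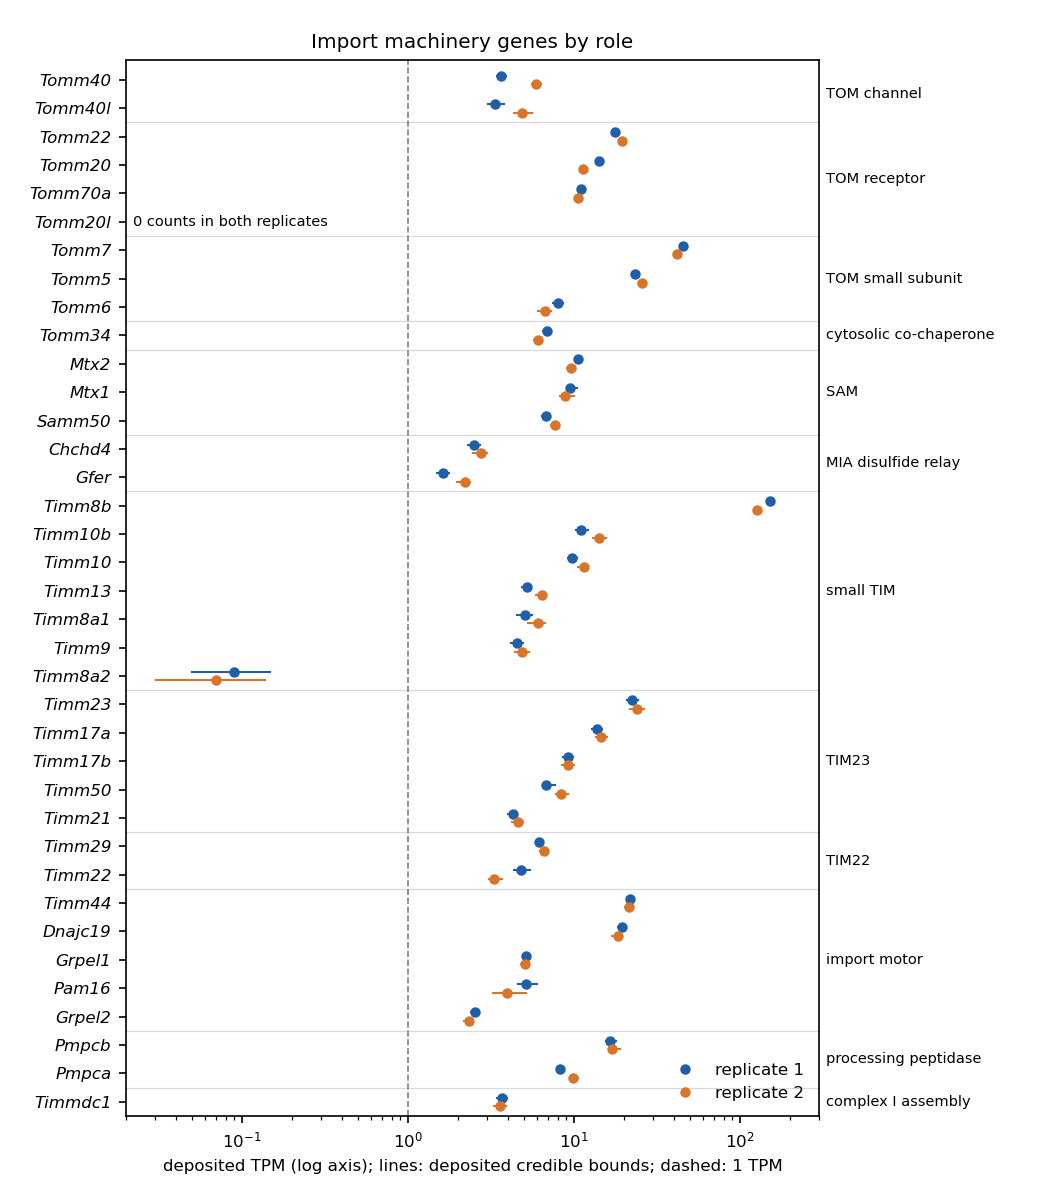
Deposited TPM of the 37 genes by role, on a log axis, with a point per replicate and lines for the deposited credible bounds; the dashed line marks 1 TPM. Timm8b lies alone at 151 and 127 TPM, most genes fall between 1 and 25 TPM, and Timm8a2 and Tomm20l lie left of the dashed line.

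The order of levels had a long, shallow middle. Timm8b was 3.19-fold above the next gene, Tomm7, and Tomm7 was 1.77-fold above Tomm5. Of the 36 steps between neighbours in this order, 24 had overlapping replicate ranges, including every step from Pmpca down to Timmdc1, so the order within that stretch is not resolved by 2 samples. Ranks of TPM in the replicates correlated at 0.977 (Spearman, over the 37 genes). TPM and effective length correlated at -0.21 over the members and at -0.25 over expressed protein-coding genes. These coefficients are across genes, which are not independent replicates. Tomm20, ranked 10 by TPM, had the most counts of any member (13838 and 7720), on effective lengths of 4783 and 4767 bases.

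At the outer membrane, the small TOM subunits Tomm7 and Tomm5 stood highest. Tomm7, which modulates assembly of the complex, had 45.2 and 41.8 TPM in replicates 1 and 2, or 43.5 ± 2.35 TPM (SD, n = 2, as for each mean below). Tomm5, a small subunit beside the channel, had 23.4 and 25.9 TPM. Tomm6, the other small subunit, had 8.04 and 6.69 TPM, below every value of Tomm5 and Tomm7. Together these 3 held 15.3% of the members' TPM. The TPM of a short gene rests on a short effective length, 440 and 424 bases for Tomm5. Tomm7 was longer, at 922 and 906 bases.

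The receptors lay in a narrow band. Tomm22, the central receptor, had 17.7 and 19.5 TPM. Tomm20, the receptor for targeting presequences, had 14.1 and 11.4 TPM, and Tomm70a, the receptor for carrier proteins and their chaperones, had 11.0 and 10.5 TPM. Tomm70a was below Tomm20 in both replicates, by 0.23 ± 0.17 on the log2 scale, and their replicate ranges did not overlap. Tomm20l, a paralogue of Tomm20 on chromosome 12 (GRCm38 71111428 to 71123221, plus strand), had 0 counts in both libraries. A floor of 3 counts allows it up to 0.0372 and 0.0560 TPM, so Tomm20 was at least 379-fold and at least 203-fold higher. Such floors cover counting error only.

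Tomm40, the channel itself, was below every expressed receptor and small subunit in both libraries. It had 3.64 TPM in replicate 1 and 5.94 TPM in replicate 2, and its paralogue Tomm40l had 3.36 and 4.87 TPM. The Tomm40 to Tomm40l ratio was 1.15, or 0.20 ± 0.12 on the log2 scale, and the replicate ranges of the genes overlapped. Tomm22 stood 3.99-fold above Tomm40 (2.00 ± 0.40, log2), higher in both replicates. Tomm40l exons share 3304 bases with Nr1i3 on the opposite strand, and the strand setting of the counting is not given in the sources used here. Counts of Tomm40l (1272 and 970) and of Nr1i3 (50 and 25) were whole, with no sign of reads divided between them. How reads of the shared bases were assigned was not tested. Nr1i3 itself was at 0.130 and 0.0800 TPM. Tomm34, a cytosolic co-chaperone that binds preproteins, had 6.84 and 6.10 TPM.

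The SAM complex, which inserts beta-barrel proteins into the outer membrane, was expressed evenly. Samm50, its barrel subunit, had 6.75 and 7.66 TPM. Mtx1 had 9.53 and 8.78 TPM and Mtx2, its partner on the cytosolic face, 10.6 and 9.65 TPM. Mtx1 was lower than Mtx2 within each library (-0.15 ± 0.01, log2), and the ranges of these genes did not overlap. Samm50 stood 1.55-fold above Tomm40, the other import barrel. The SAM and MICOS partners outside the set were more spread: 8 of 10 measured genes reached 1 TPM, with Minos1 at 82.0, Chchd3 at 67.1 and Mtch2 at 61.7 TPM on top, and Chchd6 and Mtx3 under 1 TPM in both. All 3 listed barrels that this route inserts reached 1 TPM, with Vdac3 at 54.5, Vdac2 at 47.5 and Vdac1 at 29.6 TPM.

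The disulfide relay had the lowest median of the 12 roles, 2.27 TPM. Chchd4, the import receptor and oxidase of the intermembrane space, had 2.51 and 2.75 TPM. Gfer, the sulfhydryl oxidase that re-oxidises Chchd4, had 1.63 and 2.20 TPM. Every value of Chchd4 was above every value of Gfer, by 1.39-fold in the mean (0.47 ± 0.21, log2). Cargo of the relay was far more abundant per length than the relay: all 13 listed substrates reached 1 TPM, with a median of 16.3 TPM and with Cox6b1 at 258, Cox17 at 180 and Chchd2 at 66.7 TPM. For Chchd4 the deposited transcript model is 1245 bases long and the M21 model 3472 bases. The deposited level refers to the shorter model. For Tomm22, Tomm70a, Timm21 and Samm50 the M21 models are likewise 1.52 to 2.77 times as long, and the effect on their levels was not tested.

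The small TIM chaperones held 36.1% of the members' TPM, and Timm8b was the highest of the 7. Timm8b (GRCm38 chromosome 9, 50603910 to 50605320, plus strand) had 151 and 127 TPM, or 139 ± 17.0 TPM, and lay above 99.3% of nuclear protein-coding genes. It rested on 10047 and 5558 counts, the second highest count of the set, and on short effective lengths of 324 and 308 bases. Timm13, with which its product is thought to form a complex, had 5.21 and 6.39 TPM. The ratio of Timm8b to Timm13 was 24.0, or 4.58 ± 0.39 on the log2 scale. Timm8a1, the paralogue whose human counterpart is mutated in a deafness and dystonia syndrome, had 5.11 and 6.04 TPM, close to Timm13 (ratio 0.963) and 24.9-fold below Timm8b (4.64 ± 0.35, log2). Timm8a2 had 13 and 7 counts, 0.0900 and 0.0700 TPM, 70.0-fold below Timm8a1.

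Timm9 and Timm10 encode the partners of the main small TIM chaperone, which holds them in equal numbers, and their RNAs were unequal. Timm9 had 4.57 and 4.88 TPM and Timm10 had 9.81 and 11.4 TPM. Timm10 stood 2.24-fold above Timm9, with no overlap. Timm10b, which works with the TIM22 complex, had 11.0 and 14.2 TPM by its gene row. Much of that came from a transcript that retains an intron, described further on.

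Among the inner membrane translocases, Timm23 led. Timm23, the channel-forming subunit of TIM23, had 22.4 and 24.1 TPM. Timm50, the receptor that hands proteins from TOM to TIM23, had 6.81 and 8.32 TPM, and Timm23 was 3.09-fold above it (1.63 ± 0.13, log2). Timm17a and Timm17b, alternative partners of Timm23, had 13.8 and 14.7 TPM and 9.26 and 9.18 TPM. Timm21, which links TIM23 with TOM and the respiratory chain, had 4.27 and 4.63 TPM. Timm22, the channel of the carrier route, had 4.80 and 3.29 TPM, and its partner Timm29, known from human cells, 6.16 and 6.57 TPM. Timm23 stood 5.85-fold above Timm22 (2.55 ± 0.46, log2). Timm22 was below Timm29 in both libraries.

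**Figure D2:**
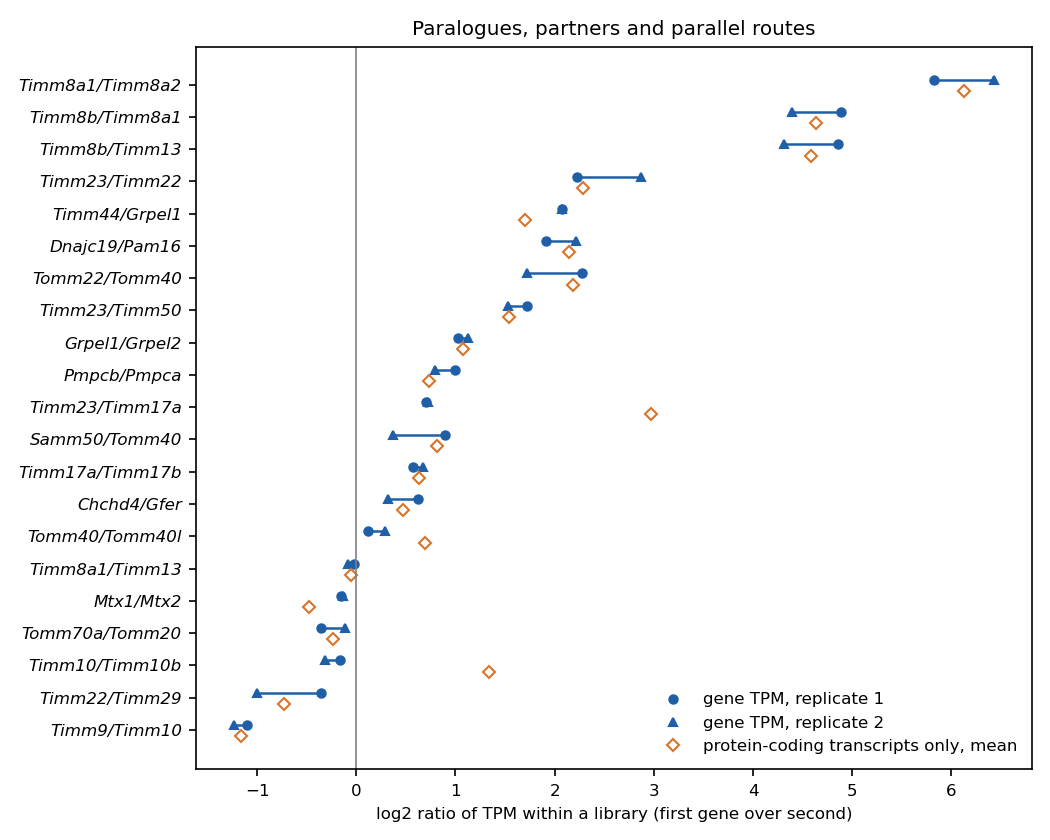
Ratios of TPM within a library for 21 gene pairs, on a log2 axis, with filled circles and triangles for replicates 1 and 2 and open diamonds for the mean ratio when only protein-coding transcripts are counted. Timm8b lies 4.64 above Timm8a1, and the diamonds of Timm23 over Timm17a (2.97) and Timm10 over Timm10b (1.33) lie far from their gene-level points at 0.71 and -0.24.

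Components of the motor were expressed unequally. Timm44, which tethers the motor to the channel, had 21.7 and 21.4 TPM, and Dnajc19, the J-protein that stimulates the matrix Hsp70, had 19.6 and 18.4 TPM. Pam16, the J-like protein that restrains Dnajc19, had 5.18 and 3.97 TPM, 4.18-fold below it (2.06 ± 0.21, log2). Grpel1, the nucleotide exchange factor of the matrix Hsp70, had 5.15 and 5.06 TPM, and its paralogue Grpel2 had 2.53 and 2.32 TPM, with Grpel1 2.11-fold higher and no overlap. Timm44 was 4.21-fold above Grpel1 in both libraries (2.08 ± 0.00, log2). Of further matrix chaperones and motor partners, all 8 listed genes reached 1 TPM, with a median of 23.4 TPM. The chaperonins Hspe1 and Hspd1 led at 76.9 and 56.1 TPM, followed by Dnajc15, a J-protein of the inner membrane, at 37.7 TPM, and the lowest of the 8 had 1.46 and 1.53 TPM.

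Both subunits of the processing peptidase were present. Pmpcb, the catalytic subunit, had 16.5 and 17.1 TPM, and Pmpca, which recognises the presequence, 8.25 and 9.85 TPM, so that Pmpcb was 1.86-fold higher (0.89 ± 0.15, log2). Of 8 further genes of presequence and matrix processing, 7 reached 1 TPM, led by Pitrm1, which degrades released presequences, at 63.0 TPM, with Immp1l at 16.3 and Lonp1 at 16.0 TPM. Immp2l was under 1 TPM in both. For insertion and inner membrane quality control 7 of 8 reached it, led by Yme1l1 at 26.5, Parl at 11.4 and Spg7 at 6.18 TPM. Cytosolic chaperones of the targeting step stood highest of these lists, with 10 of 10 at 1 TPM, a median of 93.3 TPM and Hspa8 at 529, Btf3 at 229 and Naca at 216 TPM. Timmdc1, a complex I assembly factor that the name rule takes in, had 3.70 and 3.61 TPM.

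Of the 22 pairs of paralogues, partners and parallel routes, 21 gave a fold, and in 21 of 21 the sign was the same in both libraries and the mean log2 ratio exceeded its SD. The same share over other pairs of expressed genes was not computed, so this count does not set these pairs apart. With 2 libraries an exact sign-flip test cannot give a p under 0.5, so the pairs carry no p. The smallest ratios met this weak criterion at -0.05 (Timm8a1 to Timm13) and -0.15 (Mtx1 to Mtx2) on the log2 scale.

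The deposited transcript tables changed the picture for several members. In total RNA, transcripts that keep an intron are counted with their gene. Retained-intron transcripts held 83.3 ± 2.09% of the TPM of Timm17b and 82.7 ± 5.68% of that of Timm17a, the alternative TIM23 subunits, whose coding sequences are 69.6% identical. For Timm10b the share was 56.2 ± 8.05%. Mtx2 followed with 30.0 ± 9.86%, then Mtx1 with 22.1 ± 2.49%, Pmpcb with 21.6 ± 1.58% and Timm44 with 20.6 ± 6.65%. Over the 14 members with such a transcript the median share was 17.2%, beside 11.8% over 3879 genes with one.

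On the count scale the share was smaller for the 7 genes just named, and larger in both replicates for Tomm40, Tomm6 and Tomm34. Timm17b-203, its retained-intron transcript, held 53.5% and 58.2% of the expected counts of Timm17b. Timm17a-204 held 23.9% and 27.0% of those of Timm17a, with an effective length of 362 bases in replicate 1 beside 7077 bases for the full-length Timm17a-201. TPM divides by this length, and counts do not. For Timm10b, Timm10b-205 held 25.1% and 30.2% of the counts. Timm10b exons also overlap Arfip2 on the opposite strand by 277 bases, and Arfip2 was at 5.88 and 3.47 TPM.

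**Figure D3:**
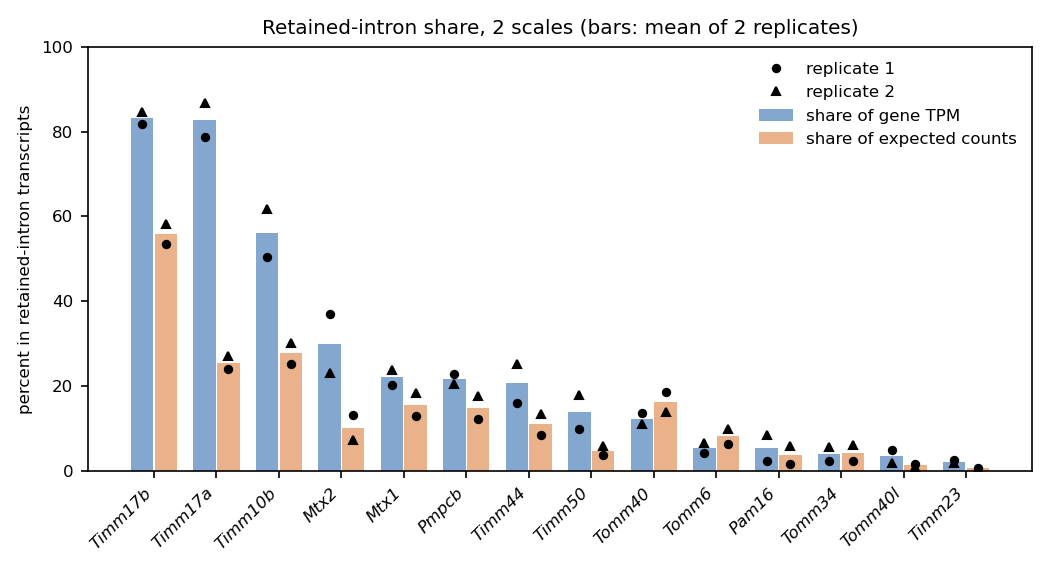
Share of each gene held by retained-intron transcripts, in percent of TPM (blue) and of expected counts (orange), for the 14 members that have such a transcript; bars are means and symbols the 2 replicates. Timm17b and Timm17a stand near 83% of TPM, but at 53.5% to 58.2% and 23.9% to 27.0% of counts.

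Counting protein-coding transcripts alone, a setting chosen after these shares had been seen, Timm17a stood at 2.93 and 1.94 TPM, rank 32 of 37 in place of 9. Timm17b stood at 1.69 and 1.40 TPM, rank 35 in place of 15, and Timm10b at 4.10 and 4.31 TPM, rank 27 in place of 11. Timm17a over Timm17b was 1.54-fold by gene rows and 1.55-fold by coding transcripts, so this pair kept its order. Timm23 over Timm17a was 1.64-fold by gene rows and 7.85-fold by coding transcripts, and Timm10 over Timm10b was 0.846-fold by gene rows and 2.52-fold by coding transcripts. For 24 members coding transcripts held over 90% of the TPM, and for 3 under 50%. No share over all genes stands beside these counts, so they do not set the members apart.

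A single transcript carried most of the gene's TPM in most members. Of the 22 with more than 1 transcript and a mean count of 100 or more, 20 had a transcript with over 50% of the TPM in both libraries, beside 66.2% of 6631 such genes. Mtx1 and Tomm40l had none. In Timm17a, Timm17b and Timm10b it was the retained-intron transcript described above. By share of expected counts the number was also 20, but the genes were not the same. Tomm40l came in, with 86.4% and 77.2% of its counts in Tomm40l-203. Timm10b dropped out, with 25.6% and 30.9% in Timm10b-203, its highest by mean. For Timm17a the transcript was then the coding Timm17a-201, with 74.1% and 72.6%. Of the TPM of Mtx1, Mtx1-216 held 22.2% and 25.8% and Mtx1-214 21.2% and 22.2%, both coding. Mtx1-215, a transcript annotated for nonsense-mediated decay, held 27.3% and 13.7%. Of the TPM of Tomm40l, Tomm40l-203 held 61.1% and 41.7%. Tomm40l-208, which is annotated as a processed transcript, held 27.6% and 39.7%. In Timm22 a short coding transcript, Timm22-203, held 39.8% of the TPM on 63.3 counts in replicate 1 and 4.80% on 3.28 counts in replicate 2. The gene's effective length was 1474 bases in replicate 1 and 2285 bases in replicate 2, so its TPM was higher in replicate 1 while its log2 CPM ratio, replicate 1 over replicate 2, was -0.12.

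Some members share sequence with other genes, counted here for the members only, with no share over all genes. Of 37 main transcripts, 13 shared no window of 50 bases with another gene, and the shared part reached 93.0% in Tomm6 (mainly with Gm21981), 90.9% in Timm23 (Gm10273), 88.7% in Pam16 (Gm9803), 73.9% in Tomm40l (Nr1i3, on the opposite strand), 563 of 1372 windows in Timm8a1 (Gm9797) and 32.0% in Dnajc19 (Dnajc19-ps). Gm21981 had 36.7 and 47.2 counts, against 916 and 515 for Tomm6. Gm10273 had 2252 and 1788 counts, 35.0% and 37.6% of its sum with Timm23, and Gm9797 had 22.6% and 27.4% of its sum with Timm8a1. Levels of Timm23, Pam16 and Timm8a1 given here are therefore uncertain by what the counting assigned to these copies. So are the ratios that use them, such as Timm8a1 to Timm13 and Dnajc19 to Pam16. Gm10273 stood at 11.9 and 13.9 TPM, Gm9803 at 3.19 and 6.4 TPM and Gm9797 at 1.86 and 2.84 TPM. Timm8b shared 6.82%, all with Nkapd1, which overlaps it by 81 bases on the opposite strand and stood at 4.75 and 3.23 TPM.

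Exon overlaps were counted for the members only, with no share over all genes. Exons of 18 members overlapped another gene, and 16 of them overlapped one on the opposite strand. For Dnajc19 that was Fxr1 (178 bases, 35.97 and 32.35 TPM), and for Pmpca it was Inpp5e (874 bases, 0.820 and 0.900 TPM). Timm23 overlaps the small nucleolar RNA Gm23946 by 104 bases on its own strand, at 1071 and 1266 TPM. The overlap is not split further here. Timm9 and Tomm20l lie tail to tail, with 49 shared bases.

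Between the replicates the import genes moved little. A mean count of 100 or more was reached by 35 members, and 0 of them differed in CPM by 2-fold or more, beside 2.05% of 9777 genes. At that background a count of 0 in 35 does not set the members apart. The log2 ratio, replicate 1 over replicate 2, had a median of -0.08 over these members and 0.01 over all genes, and it was above 0 in 13 and below 0 in 22. Its median size was 0.14 in the members and 0.16 in all genes. Tomm40 had the lowest ratio (-0.68), followed by Gfer (-0.45), and Pam16 the highest (0.44). Deposited credible bounds of the replicates overlapped for 19 of the 37 members. The same share over all genes was not computed, so this count does not set the members apart. No test was made, since each side was 1 library.

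The ratio of Pam16 depended on its copy. Pam16 had 415 and 207 expected counts, and Gm9803 had 205 and 270 counts. Their sums were 620 and 477, whole numbers, and Gm9803 held 33.1% of the sum in replicate 1 and 56.7% in replicate 2. Summed with the copy, the log2 CPM ratio was -0.19, on the other side of 0 from that of Pam16 alone. For Timm23 and Gm10273 together it was -0.13, and for Timm8a1 and Gm9797 -0.35, below 0 as for the member alone.

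**Figure D4:**
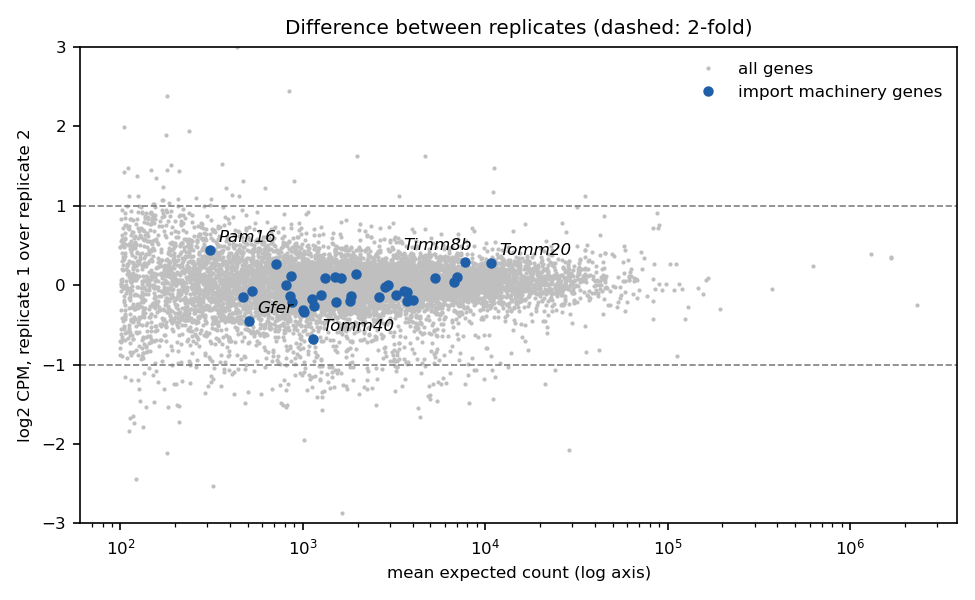
Log2 CPM ratio, replicate 1 over replicate 2, against the mean expected count (log axis) for 9777 genes whose mean count was 100 or more (grey) and 35 import machinery genes (blue); dashed lines mark 2-fold, and 10 genes lie outside the vertical range. All blue points lie between -0.68 (Tomm40) and 0.44 (Pam16).

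Promoter letters were read for the 33 members with an entry in the RefSeq promoter table, over the 250 bases before the start. Tomm7, Tomm40l, Timm21 and Grpel2 were not matched. The ETS letters CCGGAAG, searched on both strands, were in 14 of 33 (42.4%), beside 20.5% of 6280 promoters of expressed genes and 7.83% of 27025 promoters. The NRF1 letters, GCGC followed by any base and TGCGC, were in 3 (9.09%, beside 11.6% of expressed promoters), the E-box CACGTG in 4 (12.1%, beside 11.1%), the GATA letters AGATAA in 3 (9.09%, beside 6.91%) and the YY1 letters AAGATGGCG in 0 (beside 1.91%). Such matches describe the letters and are not binding sites. The promoters of Timm8b, the member with the highest level, and of Timmdc1, which has the most ETS matches, are shown with the ETS letters in capitals. They are from RefSeq on GRCm38.p6, 5′ to 3′ on the strand of the gene: Timm8b at chr9:50603651-50603900 on the plus strand and Timmdc1 at chr16:38522664-38522913 on the minus strand.
Timm8b: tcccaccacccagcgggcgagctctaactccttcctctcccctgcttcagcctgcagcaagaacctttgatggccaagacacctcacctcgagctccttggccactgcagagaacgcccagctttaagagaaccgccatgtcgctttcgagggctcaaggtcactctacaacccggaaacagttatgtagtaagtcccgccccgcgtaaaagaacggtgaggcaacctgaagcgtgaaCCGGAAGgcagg
Timmdc1: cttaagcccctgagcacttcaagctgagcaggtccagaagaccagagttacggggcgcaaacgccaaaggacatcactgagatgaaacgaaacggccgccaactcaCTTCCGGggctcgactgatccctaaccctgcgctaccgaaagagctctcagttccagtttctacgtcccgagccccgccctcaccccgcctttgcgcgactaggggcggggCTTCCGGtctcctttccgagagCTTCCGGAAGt

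In Timm8b the letters begin 12 bases before the start. In Timmdc1 4 matches were found, and the pair nearest the start overlap, since the letters were found on both strands there. Timmdc1 stood at 3.66 TPM and Timm8b at 139 TPM. The promoter of Tomm5, a gene at 24.6 TPM, held none of the searched letters.

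Some members start beside another gene. The start of Timm8b lies 98 bases from that of Sdhd, a membrane anchor of respiratory complex II, on the opposite strand, and Sdhd stood at 83.1 and 80.2 TPM. Among the 37 members 8 (21.6%) had such a divergent neighbour within 1000 bases, beside 14.3% of expressed and 7.28% of all nuclear protein-coding genes. The others were Timm17b with Pqbp1 (88 bases, 21.9 and 20.1 TPM), Timm23 with Parg (51 bases, 15.6 and 14.0 TPM), Pmpca with Entr1 (23 bases, 8.58 and 8.67 TPM), Timm9 with 2700049A03Rik, Chchd4 with Tmem43, Gfer with Noxo1 and Tomm6 with Frs3. Noxo1 and Frs3 were under 1 TPM in both libraries, so a divergent neighbour was not always expressed with its member.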

How the data were processed

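For each of the 2 libraries the authors deposited gene-level and transcript-level tables. Their count column holds expected counts, per the file headers, not all of them whole. TPM and FPKM values were deposited beside them, with effective lengths, posterior means and credible bounds whose level is not given in the sources used here. Transcript tables also give, per the file headers, the percent of its gene's TPM that each transcript makes up. The deposited text lists name mm10 as the assembly and M4 as the GENCODE annotation. The program, the aligner and the use of strand are not given in the sources used here.

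GENCODE M21, on the same assembly (GRCm38), gave symbols, types and coordinates by identifier without version; 42462 of 43346 rows matched, and the 37 members were among them. Members and gene lists were chosen with earlier results of these data known. Every member is named; of each further list the 3 genes with the highest mean TPM and those under 1 TPM in both libraries are named, and all genes of the pairs. Copies, overlapping genes and divergent neighbours were named as found. For CPM ratios, expected counts were rounded to whole numbers and scaled with TMM factors (0.989 and 1.01) and a prior count of 0.5 (edgeR 4.0.16, R 4.3.3); sums with copies used unrounded counts and no prior. DESeq2 1.42.0 gave size factors as an alternative. The ratio step was checked on simulated counts. A ratio within a library was called beyond its spread where both replicates had the same sign and the mean exceeded the SD. A count was taken as whole within 0.005; 29 members had whole counts in both libraries. Windows of 50 bases of each member's main transcript were searched in all other M21 transcripts on both strands. Promoters came from RefSeq and coding stretches from M21. Other steps used Python 3.11 with pandas 2.3.3, numpy 2.4.6, scipy 1.17.1 and matplotlib 3.10.9. Reads carry no molecular identifiers, so floors cover counting error only. Alternatives were other units, thresholds, scalings and prior counts, and each replicate left out. With 1 replicate left out a pair keeps 1 value and no SD, so its call was met in advance. The value of 1 marker gene, and the count of its list, are not reported here.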

Additional observations from a re-analysis of the deposited data

How the results depend on the processing

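No paired analysis was possible because the 2 libraries form 1 group. The number of members at 1 TPM was 35 without either replicate. It fell to 25 at a threshold of 5 TPM and to 12 at 10 TPM. The member median ranged from 6.84 to 7.66 TPM with 1 replicate left out. It was 24.9 as FPKM and 51.8 as TPM rescaled over nuclear protein-coding genes, which are larger units by construction, and 5.80 TPM over protein-coding transcripts only, an alternative chosen after seeing the data. That alternative turned the log2 ratio of Timm10 to Timm10b to 1.33, because the retained-intron transcript of Timm10b left the sum. Expected counts not divided by length turned Timm8a1 over Timm13 to 0.20 and Pmpcb over Pmpca to -0.11. On that scale Chchd4 over Gfer was -0.13 and Tomm40 over Tomm40l 0.04, each with opposite signs in the replicates, so 19 of 21 pairs were beyond their spread. These are differences of transcript length, not of level per length. The other 35 alternatives for the summaries include the threshold of 5 TPM and the pair calls with 1 replicate left out. Those calls were met in advance, since 1 value has no SD. The rest of the 35, and 142 for single pairs, kept their direction and call, or stayed close to the reported count. Depth was not limiting for 35 members with 100 or more counts, and limits Timm8a2 and Tomm20l. Models of Chchd4 and Samm50 are shorter in the deposited annotation than in M21.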
